A study of Homo sapiens with 6 samples.

Results

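The epithelial-mesenchymal transition (EMT) transcription factors of the SNAI, ZEB and TWIST families, and 4 of their classical readout genes, were followed in T-24 cells, an established line from a human urinary bladder cancer. The 10 genes were SNAI1, SNAI2, ZEB1, ZEB2, TWIST1, TWIST2, CDH1, CDH2, VIM and FN1. They were chosen by family and role, with earlier results of these data known, and matched by symbol among the 38557 gene symbols of the count and TPM tables. Cells had received 1 µM CCT068127, which inhibits the cyclin-dependent kinases CDK2 and CDK9, for 48 h (n = 3), or the vehicle DMSO for the same time (n = 3). The genotype of all 6 samples is labelled wild type, both arms used the same line, and poly(A) RNA was sequenced once per sample. Of the 10 genes, 7 had enough counts to be tested, and TWIST1, TWIST2 and CDH1 did not.

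In EMT, epithelial cells loosen their junctions and take up a motile, mesenchymal state. SNAI and ZEB factors are zinc finger repressors that bind E-box motifs in promoters such as that of CDH1, which encodes E-cadherin, the adhesion molecule of epithelial junctions. TWIST factors are basic helix-loop-helix proteins that act with the E proteins TCF3, TCF4 and TCF12. The fall of E-cadherin with a gain of N-cadherin (CDH2) is called the cadherin switch, and the intermediate filament protein vimentin (VIM) and the matrix protein fibronectin (FN1) are its usual companions. The miR-200 family and miR-205 hold ZEB1 and ZEB2 down in epithelial cells, and the ZEB factors repress the miR-200 genes in turn.

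Because the ZEB genes are the best known targets of these microRNAs, the mature sequences from RefSeq (GRCh38.p14) are given with the seed, bases 2 to 8, in capitals. hsa-miR-200b-3p, hsa-miR-200c-3p and hsa-miR-429 share one seed, hsa-miR-200a-3p and hsa-miR-141-3p share another that differs from it at a single base, and hsa-miR-205-5p has its own.
hsa-miR-200b-3p: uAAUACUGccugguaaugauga
hsa-miR-200c-3p: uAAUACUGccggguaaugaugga
hsa-miR-429: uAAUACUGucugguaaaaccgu
hsa-miR-200a-3p: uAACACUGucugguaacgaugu
hsa-miR-141-3p: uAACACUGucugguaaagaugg
hsa-miR-205-5p: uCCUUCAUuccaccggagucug

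The promoters of ZEB1 and ZEB2 are given because both ZEB transcripts were lower after treatment. Each RefSeq window (GRCh38.p14) runs from 250 bases before to 50 bases after a transcript start, and the capitals mark the SNAI and ZEB type E-box CACCTG or its reverse complement CAGGTG. The 2 motifs are 1 site read on both strands and cannot overlap one another. ZEB1 had 7 windows, of which 2 held 4 matches in all, and the window with 3 matches is chr10:31318966-31319265 on the plus strand. The single ZEB2 window, chr2:144520070-144520369 on the minus strand, held no match, and 20.6% of the 35116 RefSeq windows held at least 1.
ZEB1 promoter window: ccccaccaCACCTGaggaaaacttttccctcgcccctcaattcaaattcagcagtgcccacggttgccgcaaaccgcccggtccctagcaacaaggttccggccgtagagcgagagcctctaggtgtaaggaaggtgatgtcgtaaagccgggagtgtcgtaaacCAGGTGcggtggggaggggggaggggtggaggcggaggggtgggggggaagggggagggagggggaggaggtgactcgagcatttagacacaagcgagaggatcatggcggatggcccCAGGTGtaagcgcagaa
ZEB2 promoter window: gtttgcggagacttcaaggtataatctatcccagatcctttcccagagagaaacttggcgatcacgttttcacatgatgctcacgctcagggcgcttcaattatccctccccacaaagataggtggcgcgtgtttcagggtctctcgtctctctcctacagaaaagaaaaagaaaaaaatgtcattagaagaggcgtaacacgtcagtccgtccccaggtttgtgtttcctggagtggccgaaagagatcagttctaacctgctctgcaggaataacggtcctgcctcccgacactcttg
No match was found in the windows of CDH2 (2 windows), VIM, FN1 and TWIST2 (1 window each). Windows were looked up by symbol for all 10 genes and found for 6. SNAI1, SNAI2, TWIST1 and CDH1 had no entry.

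Library totals ran from 1966742 to 5557546 counts under CCT068127. They were 371044040, 411097626 and 5955296 in DMSO replicates 1, 2 and 3. Of all 13597 tested genes, 8793 (64.7%) differed at an adjusted p under 0.05: 4333 (31.9%) were higher and 4460 (32.8%) lower under CCT068127 (edgeR quasi-likelihood test, Benjamini-Hochberg adjustment, n = 3 per group). No overlap between the arms was seen for 69.4% of them. The split of calls depends on the scaling. With library totals in place of TMM (trimmed mean of M-values) scaling it was 3006 higher (22.1%) and 6567 lower (48.3%), and on log2(TPM + 1) values it was 2476 higher (17.2%) and 7475 lower (51.9%). The median log2 fold change of all genes was -0.05 with TMM, -0.36 with library totals and -0.46 on log2(TPM + 1), so a small fold change has a direction only relative to the scaling. Within the epithelial marker list the label was borne out by the keratins, and CDH1 did not bear it out. EPCAM, KRT7, KRT8, KRT18 and KRT19 summed to 5281 to 6725 TPM in CCT068127 cells and 3677 to 4874 TPM in DMSO cells, with the 4 keratins higher in the edgeR test. EPCAM added little to these sums, with a mean of 3.20 TPM under CCT068127 and 5.05 TPM under DMSO. Among other epithelial genes, OVOL1, OVOL2, GRHL2, ESRP1, CLDN3 and RAB25 were too low to test. Some junction genes were abundant. CLDN1 averaged 69.8 TPM under CCT068127 and 216 TPM under DMSO, and JUP 60.8 TPM under CCT068127 and 159 TPM under DMSO. Uroplakins, the markers of differentiated urothelium, summed to 1.67 to 3.65 TPM under CCT068127 and 2.05 to 3.57 TPM under DMSO, and fibroblast markers to 1.67 to 2.60 TPM under CCT068127 and 10.7 to 13.8 TPM under DMSO, with DCN and LUM at 0 in all 6 libraries. PDGFRB made up most of the fibroblast sum (1.38 to 1.95 TPM under CCT068127 and 10.6 to 13.7 TPM under DMSO). THY1, of the same list, was higher after treatment, with 14 counts over the CCT068127 libraries and 84 over the DMSO libraries (ratio of depth-adjusted counts 10.8, exact 95% interval 5.65 to 19.1, not tested over replicates). In the uroplakin sum UPK1B was likewise higher, with 22 counts over the CCT068127 libraries and 99 over the DMSO libraries (ratio 14.4, exact 95% interval 8.62 to 22.995). Endothelial markers summed to 2.26 to 5.09 TPM under CCT068127 and 4.66 to 5.67 TPM under DMSO, with KDR at 0 throughout, and immune markers to 4.61 to 7.69 TPM under CCT068127 and 4.92 to 6.22 TPM under DMSO. Within the immune sum LYZ averaged 3.73 TPM under CCT068127 and 0.32 TPM under DMSO, and CD14 averaged 1.79 TPM under CCT068127 and 5.29 TPM under DMSO. The part of these marker levels in the results was not tested.

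SNAI1 rose about 24-fold and ZEB2 fell about 2-fold, and these calls held in each of 18 fits that differed in scaling, filter, test or libraries. SNAI1 passed the low-count filter only through treated cells, so its values describe the rise and its call is no support. In bulk RNA, fewer cells that express a gene and less of its RNA per cell cannot be told apart. SNAI2, CDH2 and VIM also passed as higher and ZEB1 as lower, but with smaller changes that depended on the scaling or on single libraries. FN1 did not pass, CDH1 was close to absent in both groups, and TWIST1 and TWIST2 were listed at 0. Of the 7 tested genes 4 passed as higher and 2 as lower, beside 31.9% higher and 32.8% lower among all tested genes. These counts are a description only, since 64.7% of all genes were called.

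**Figure D1:**
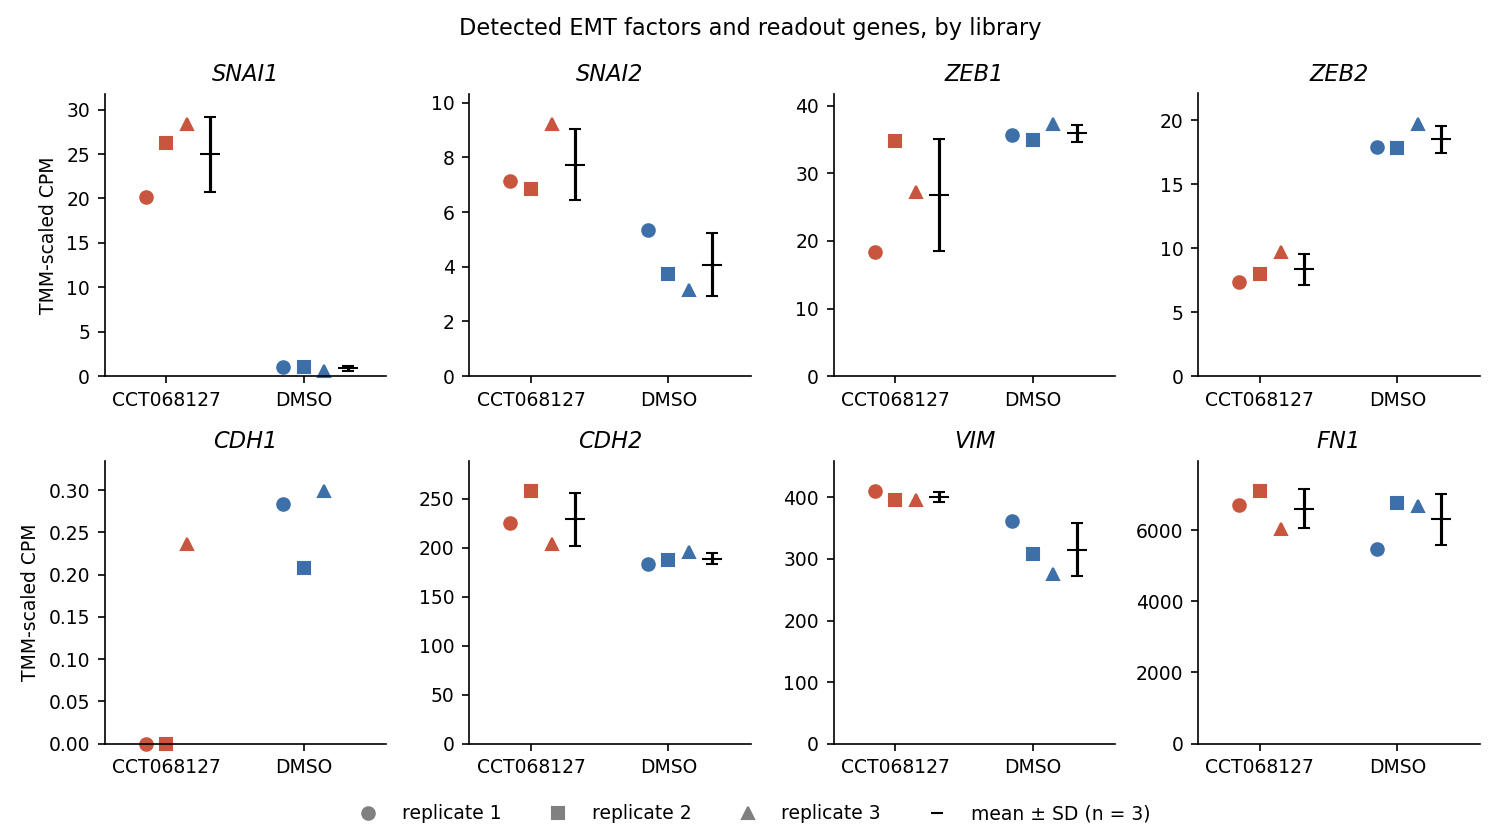
TMM-scaled CPM (counts relative to the library total, y axis of each panel) of the detected genes in every library, with CCT068127 libraries on the left and DMSO libraries on the right. Points are single libraries, and bars show the mean ± SD (n = 3), except for CDH1, which has points only. The SNAI1 values under CCT068127 lie between 20.2 and 28.4 CPM, against 0.597 to 1.08 CPM under DMSO, while the FN1 values of the groups overlap.

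SNAI1 (chr20:49982999-49988886, plus strand, GENCODE 29 on GRCh38), which encodes Snail, the short-lived repressor that starts many EMT programmes, was, in TPM, the highest of these factors in CCT068127 cells and the lowest of the detected ones in DMSO cells. Its counts were 99, 46 and 120 in the CCT068127 libraries and 416, 489 and 4 in the DMSO libraries. In TMM-scaled CPM these were 20.2, 26.3 and 28.4 under CCT068127, against 1.01, 1.08 and 0.597 under DMSO. Every treated library stood far above every DMSO library, although DMSO replicate 3 rested on 4 counts alone. SNAI1 averaged 24.95 ± 4.27 CPM with CCT068127 and 0.896 ± 0.262 CPM with DMSO (SD, n = 3 each), a log2 fold change of 4.61 ± 0.22 (SE; 95% interval 4.12 to 5.10; edgeR adjusted p = 8.66e-08). Across the 18 fits the log2 fold change lay between 3.47, on log2(TPM + 1), and 5.10, with the deep DMSO libraries thinned. Against DMSO replicate 3 alone, the control of like depth, it was 5.31. SNAI1 passed the low-count filter only through its values in treated cells, so its call is no support.

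SNAI2 (chr8:48917604-48921740, minus strand), which encodes Slug, the related repressor common in basal epithelial cells, rose far less. It stood at 7.13, 6.85 and 9.23 CPM under CCT068127 and at 5.36, 3.73 and 3.14 CPM under DMSO. The groups did not overlap in CPM, but the lowest treated library held 12 counts and DMSO replicate 3 held 21. The log2 fold change was 0.88 ± 0.26 (95% interval 0.30 to 1.45; edgeR adjusted p = 0.0124). In TPM the groups overlapped, at 4.92, 4.90 and 6.59 under CCT068127 and 5.34, 3.64 and 3.13 under DMSO. The call was lost with library totals (0.57, adjusted p = 0.0743), limma-voom (0.85, adjusted p = 0.0509), no low-count filter (0.62, adjusted p = 0.055) and log2(TPM + 1) (0.38, adjusted p = 0.134). It was also lost without CCT068127 replicate 3 (0.71, adjusted p = 0.0888) or without DMSO replicate 2 (0.74, adjusted p = 0.0529).

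The order of SNAI1 and SNAI2 differed between the arms within each library, a comparison that does not depend on the scaling between libraries. The ratio of SNAI1 to SNAI2 TPM, which is per length, was 3.66, 4.97 and 4.02 in CCT068127 cells and 0.243, 0.376 and 0.246 in DMSO cells. SNAI1 was the more abundant in each treated library and SNAI2 in each DMSO library. SNAI3, the third family member, was too low to test, with 2 counts over the CCT068127 libraries and 588 over the DMSO libraries, a ratio of depth-adjusted counts of 0.22 (exact 95% interval 0.0266 to 0.798, for counting error only).

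The ZEB genes were lower after treatment. ZEB2 (chr2:144364364-144524583, minus strand), which encodes the repressor also known as SIP1, had 7.34, 7.997 and 9.70 CPM with CCT068127, against 17.9, 17.8 and 19.7 CPM with DMSO. The groups were well apart, and each was tight. ZEB2 averaged 8.35 ± 1.22 CPM in CCT068127 cells and 18.5 ± 1.06 CPM in DMSO cells (SD, n = 3 each), a log2 fold change of -1.13 ± 0.16 (95% interval -1.49 to -0.77; edgeR adjusted p = 0.000124), or 2.19-fold lower. Across the 18 fits it lay between -1.44 and -1.03, and against DMSO replicate 3 alone it was -1.23. The treated values rest on 36, 14 and 41 counts.

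ZEB1 (chr10:31318495-31529814, plus strand), its paralogue and a direct repressor of CDH1, had 18.3, 34.8 and 27.2 CPM under CCT068127 and 35.6, 34.9 and 37.3 CPM under DMSO. The treated libraries spread widely, and CCT068127 replicate 2 lay just under the lowest DMSO library. The log2 fold change was -0.49 ± 0.18 (95% interval -0.89 to -0.10; edgeR adjusted p = 0.0322). The call was lost with DESeq2 (-0.44, adjusted p = 0.0523) and without CCT068127 replicate 1 (-0.28, adjusted p = 0.0981) or 3 (-0.57, adjusted p = 0.0705). It was also lost without DMSO replicate 2 (-0.53, adjusted p = 0.0504) or 3 (-0.49, adjusted p = 0.062). The ratio of ZEB1 to ZEB2 TPM was 3.10, 5.72 and 3.72 in CCT068127 cells and 2.85, 2.90 and 2.84 in DMSO cells, so ZEB1 was the more abundant ZEB transcript in every library.

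SNAI1 and ZEB2 exchanged places. The TPM ratio of SNAI1 to ZEB2 was 12.5, 15.8 and 13.9 in CCT068127 cells and 0.288, 0.322 and 0.160 in DMSO cells, with no overlap.

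TWIST1 (chr7:19020991-19117672, minus strand) and TWIST2 (chr2:238848032-238910543, plus strand) were listed at 0 counts in every library. Over each group, 3 counts correspond to 0.246 CPM with CCT068127 and 0.00381 CPM with DMSO. Whether these zeros are absence of the transcripts or a feature of the quantification is not known, since 9419 symbols were at 0 throughout. They are therefore given as listed.

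The transcripts that overlap these genes bear on the values, since no source used here says whether the libraries keep strand, and reads of overlapping antisense genes then cannot be told apart. VIM-AS1, which shares 1727 bases with the VIM locus, fell, at 6.93, 5.71 and 5.44 CPM under CCT068127 and 11.2, 10.5 and 11.05 CPM under DMSO (log2 fold change -0.83 ± 0.18, edgeR adjusted p = 0.00205). ZEB1-AS1, which overlaps ZEB1 over 1953 bases including the printed promoter window, had 3.67, 5.71 and 5.44 CPM under CCT068127 and 4.09, 3.37 and 3.58 CPM under DMSO and did not pass (0.36 ± 0.25, edgeR adjusted p = 0.227). ZEB2-AS1 held 1 count in all. Their counts were below those of VIM and ZEB1 in every library.

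Poly(A) libraries do not measure mature microRNAs. The primary transcript symbols MIR200A, MIR200B, MIR200C, MIR200CHG, MIR141, MIR429 and MIR205 were at 0 in all 6 libraries. MIR205HG, the host transcript of miR-205, had 0, 0 and 0 counts with CCT068127 and 547, 564 and 10 counts with DMSO. It was too low to test and was singled out after its values were seen. Against the floor of 3 counts over the treated group it was at least 5.78-fold lower in CCT068127 cells, and its TPM was listed as 0.42, 0 and 0 under CCT068127 and 3.23, 3.08 and 3.55 under DMSO.

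**Figure D2:**
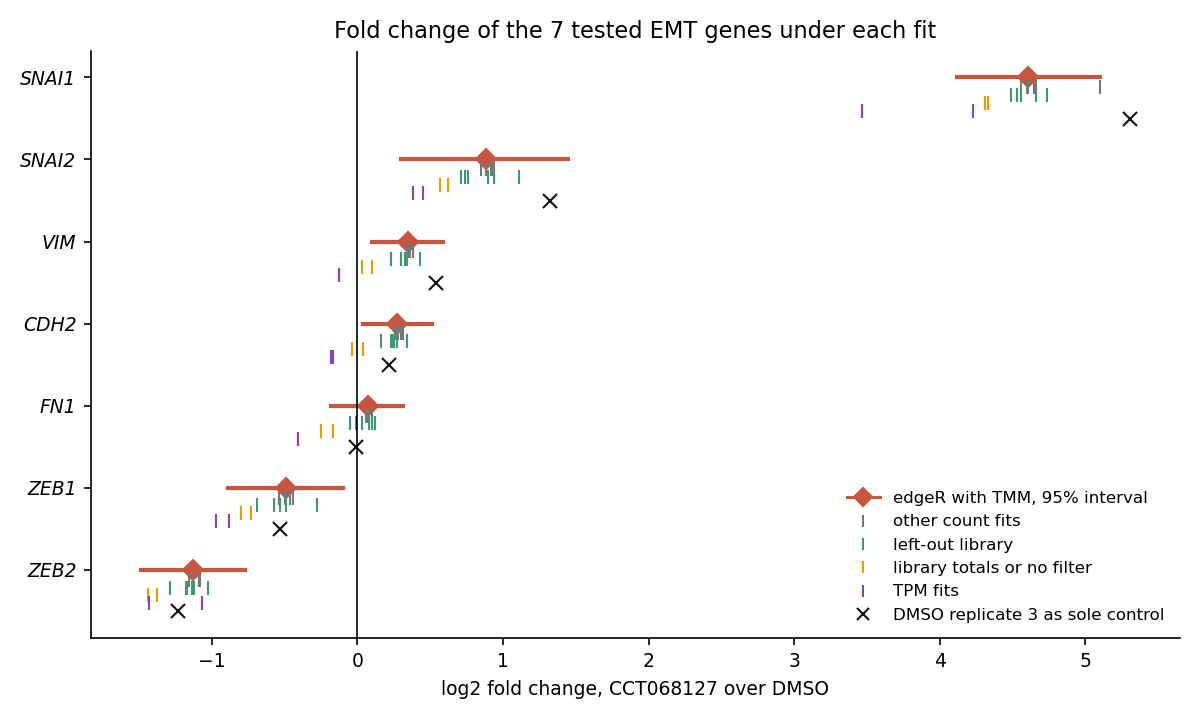
Log2 fold change (x axis, CCT068127 over DMSO) of each tested gene (rows) in the main fit and under each alternative. A filled diamond marks the main fit, its line gives the 95% interval, and the markers and colours of the alternatives are defined in the legend. SNAI1 stays between 3.47 and 5.10 and ZEB2 between -1.44 and -1.03 over the 18 fits, whereas CDH2, VIM and FN1 fall on both sides of 0.

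CDH2 far exceeded CDH1 under both treatments. CDH1 (chr16:68737225-68835548, plus strand) held 0, 0 and 1 counts in the CCT068127 libraries and 117, 94 and 2 in the DMSO libraries, too few in the shallow libraries to test. Over each group this was 0.0821 CPM with CCT068127 and 0.270 CPM with DMSO, a ratio of 0.304 (exact 95% interval 0.00765 to 1.71, for counting error only), so a fall of CDH1 was not detectable at this depth, and a rise beyond 1.71-fold lay outside the interval. CDH1 TPM was listed as 0, 0 and 0.08 under CCT068127 and 0.12, 0.09 and 0.14 under DMSO.

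CDH2 (chr18:27950966-28177446, minus strand), the N-cadherin gene, was abundant in both groups. Its values were 225, 258 and 204 CPM with CCT068127 and 184, 188 and 196 CPM with DMSO. Each treated library stood above the DMSO libraries, by a small margin in replicate 3. The log2 fold change was 0.27 ± 0.11 (95% interval 0.04 to 0.51; edgeR adjusted p = 0.042), and relative to the median gene it was 0.32. In TPM the groups overlapped, at 86.8, 99.6 and 80.2 under CCT068127 and 97.5, 97.9 and 105 under DMSO. The direction turned with library totals (-0.04, with an adjusted p of 0.729) and likewise on log2(TPM + 1) (-0.17, with 0.151), with no call in either fit. Without a low-count filter the call was lost (0.04, adjusted p = 0.883). It was also lost when either CCT068127 replicate 1 or 2 or any DMSO library was left out (adjusted p from 0.0855 to 0.156), and without CCT068127 replicate 2 the log2 fold change was 0.16.

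Within a library, CDH2 exceeded CDH1 by a log2 TPM ratio of 9.97 in CCT068127 replicate 3 and of 9.67, 10.09 and 9.55 in the DMSO libraries. CDH1 was at 0 in CCT068127 replicates 1 and 2, which leaves no ratio there. CDH2 was thus the more abundant transcript of this pair in each library.

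VIM (chr10:17228259-17237593, plus strand), the vimentin gene, also passed as higher by a small margin. It had 410, 396 and 396 CPM in CCT068127 cells and 361, 308 and 275 CPM in DMSO cells, with no overlap. The DMSO libraries varied among themselves more than the treated ones. The log2 fold change was 0.35 ± 0.11 (95% interval 0.10 to 0.59; edgeR adjusted p = 0.0183). With library totals the fold change was 0.03 (adjusted p = 0.797), without a low-count filter 0.10 (adjusted p = 0.68) and on log2(TPM + 1) it turned to -0.13 (adjusted p = 0.296). The call was also lost without CCT068127 replicate 1 (adjusted p = 0.0582) or 3 (0.0623), or without DMSO replicate 2 (0.0904) or 3 (0.23 on the log2 scale, adjusted p = 0.131). VIM TPM was 331.27, 332.48 and 331.82 under CCT068127 and 421.63, 352.94 and 322.40 under DMSO.

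Set against keratins in the same library, which needs no scaling between libraries, VIM was lower relative to KRT8 after treatment. The TPM ratio of VIM to KRT8 was 0.138, 0.183 and 0.159 with CCT068127 and 0.450, 0.434 and 0.399 with DMSO, with no overlap. To KRT18, the partner of keratin 8 in simple epithelial filaments, the ratio overlapped, at 0.255, 0.364 and 0.305 with CCT068127 and 0.310, 0.342 and 0.307 with DMSO. KRT8 and KRT18 have many near-identical pseudogene copies, so their counts carry that uncertainty.

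FN1 (chr2:215360440-215436172, minus strand), the fibronectin gene, was the most abundant of the 10. It had 6695, 7090 and 6018 CPM in CCT068127 cells and 5464, 6761 and 6667 CPM in DMSO cells. The groups overlapped, with a log2 fold change of 0.07 ± 0.11 (95% interval -0.18 to 0.31; edgeR adjusted p = 0.61). On log2(TPM + 1) FN1 passed as lower (-0.41, adjusted p = 0.0106), where its difference from the median gene was 0.05. Without the TPM filter, over 27872 genes, it also passed as lower (-0.41, adjusted p = 0.0465), with a difference from the median gene of -0.37. Its TPM was 1161, 1271 and 1081 under CCT068127 and 1362, 1655 and 1666 under DMSO, with no overlap on that scale.

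**Figure D3:**
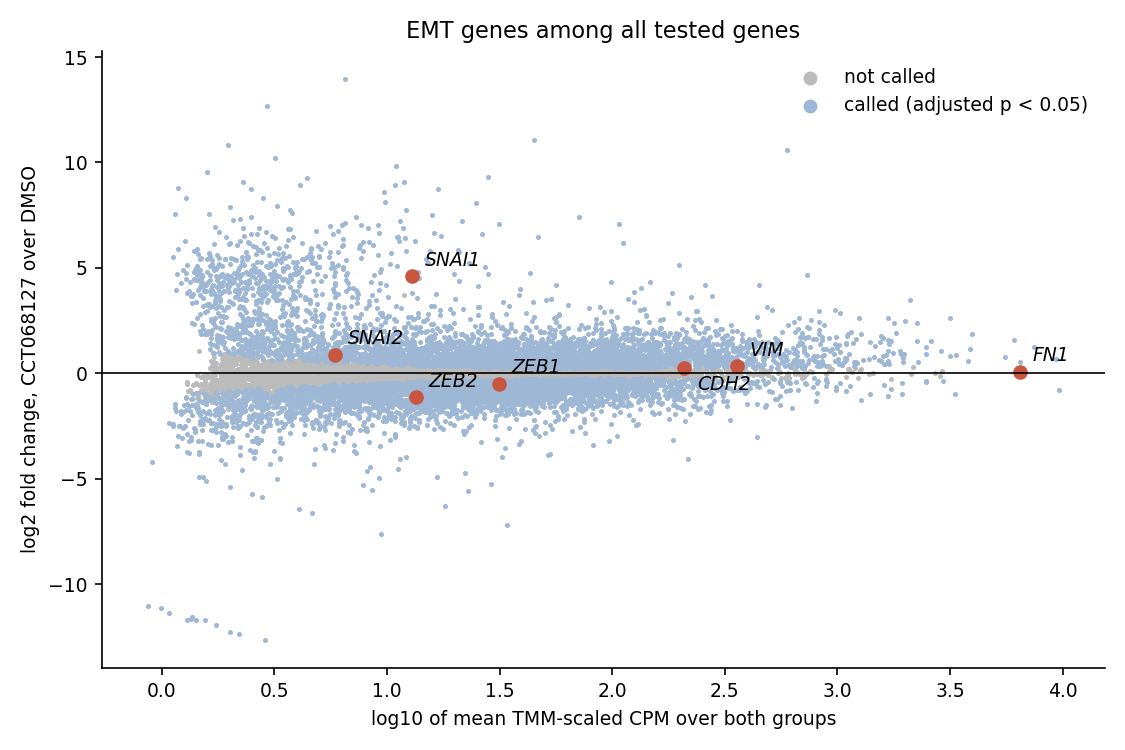
Log2 fold change (CCT068127 over DMSO, y axis) against the mean TMM-scaled CPM over both groups (x axis, log scale) of all 13597 tested genes. Genes not called are grey and called genes are blue, with the tested genes named above drawn over them. SNAI1 lies at 4.61, SNAI2 at 0.88 and ZEB2 at -1.13, outside the middle range of all genes (quartiles -0.61 and 0.59). CDH2, VIM, FN1 and ZEB1 lie inside it.

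Levels between genes were ordered on the TPM scale. In CCT068127 cells the order was FN1, VIM, CDH2, SNAI1, ZEB1, SNAI2, ZEB2 and CDH1, and ZEB1 (4.46 to 8.81 TPM) and SNAI2 (4.90 to 6.59 TPM) overlapped. In DMSO cells it was FN1, VIM, CDH2, ZEB1, ZEB2, SNAI2, SNAI1 and CDH1, and ZEB2 (4.26 to 4.81 TPM) and SNAI2 (3.13 to 5.34 TPM) overlapped. The 3 readout genes at the top kept their order in both groups, and the factors below them changed places.

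The genes whose profiles over the 6 libraries were most like those of the called genes were found by the root mean square difference of log2 CPM, each profile taken relative to its DMSO mean. For SNAI1 these were ARGFX, a homeobox gene (difference 0.138, log2 fold change 4.42), and LOC102724416 (0.161, 4.65), which passed the low-count filter only through treated cells and stood at 6.67 and 5.999 CPM under CCT068127 and 0.256 and 0.203 CPM under DMSO. For SNAI2 they were AEN, a nuclease gene known as a p53 target (0.0812), and MYORG (0.0825), and for ZEB2 they were CSPP1, a centrosome and cilium gene (0.0471), and VPS8, an endosomal tethering gene (0.0683). For ZEB1 they were UBLCP1 (0.0185) and SCAPER (0.0349), for CDH2 TM2D2 (0.0271) and CHD1L (0.0357), and for VIM STARD3NL (0.0506) and BASP1 (0.0517). Like ZEB1, CDH2 and VIM, their neighbours had small changes, and TM2D2 and CHD1L did not pass (0.26 and 0.22, edgeR adjusted p = 0.0647 and 0.097). With 6 libraries in 2 groups, likeness reflects mainly the size of the change and the scatter of each library.

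Of the other EMT drivers and partners, 13 of 18 were tested, 5 rose, 3 fell and 5 did not pass, with a median log2 fold change of 0.10, beside -0.05 for all genes. These counts are close to the 31.9% higher and 32.8% lower of all tested genes. HMGA2, ETS1, ID2 and ID3 were among those that rose, and TCF3, TCF12 and FOXQ1 fell. ID2, an inhibitor that binds E proteins and keeps them from DNA, averaged 107 ± 13.3 CPM in CCT068127 cells and 6.01 ± 1.51 CPM in DMSO cells (4.20 ± 0.21, edgeR adjusted p = 1.31e-07). ID3, of the same family, averaged 79.0 CPM with CCT068127 and 25.3 CPM with DMSO (1.65 ± 0.12). The E protein TCF12 averaged 50.9 CPM with CCT068127 and 99.5 CPM with DMSO (-0.99 ± 0.11), and TCF3 87.8 CPM with CCT068127 and 132 CPM with DMSO (-0.56 ± 0.12). TCF12 and TCF3 thus fell while ID2 and ID3 rose, but not every member of these families moved. The E protein TCF4 (-0.38, edgeR adjusted p = 0.0519) and the inhibitor ID1 (0.04, edgeR adjusted p = 0.811) did not pass. ID4 was too low to test. On log2(TPM + 1) the list's counts were 2 higher and 6 lower, beside 17.2% and 51.9% of all genes, and its median -0.33, beside -0.46.

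Among 11 factors that hold the epithelial state, 5 were tested, with 4 lower, 1 higher and a median of -0.81, beside 32.8% lower and 31.9% higher of all tested genes. With so few genes, in a list chosen with earlier results of these data known, these counts are a description only. EHF, an ETS factor of epithelia, averaged 0.517 CPM with CCT068127 and 15.1 CPM with DMSO, a fitted log2 fold change of -5.31, or -2.57 on log2(TPM + 1). It passed the low-count filter only through DMSO cells, and its treated value rests on 4 counts over 3 libraries, so its call is no support. ELF3, its relative, averaged 5.82 CPM with CCT068127 and 39.0 CPM with DMSO (-2.73 ± 0.32). KLF4 also fell (-0.81), and the splicing regulator ESRP2 passed narrowly (-0.54, edgeR adjusted p = 0.0496). The list's lower calls numbered 3 with DESeq2 size factors, with DESeq2, with thinned DMSO libraries and without DMSO replicate 1 or 2 or CCT068127 replicate 1 or 2. KLF5, a basal epithelial factor, passed as higher (0.34 ± 0.12, edgeR adjusted p = 0.0326), but was -0.15 on log2(TPM + 1), without a call, and lost its call with library totals, with no filter and without any one library other than CCT068127 replicate 1 (0.22 to 0.33).

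Of the epithelial junction and keratin genes, 22 of 28 were tested, 7 rose, 10 fell and 5 did not pass, beside 31.9% higher and 32.8% lower of all tested genes, with a median of -0.34. OCLN, MARVELD2, MARVELD3, KRT7, KRT8, KRT18 and KRT19 rose. CLDN1, CLDN4, TJP1, TJP3, F11R, DSP, JUP, PKP3, PATJ and MUC1 fell, and EPCAM, CXADR, PKP2, LLGL2 and SPINT1 did not pass. TJP3 passed the low-count filter only through DMSO cells, with 1 count over the CCT068127 libraries, so its call is no support. CLDN4 and MUC1 rested on 14 and 16 counts over the CCT068127 libraries. Both passed the low-count filter only with their values in DMSO cells, so their calls are no support either. KRT8 averaged 2417 CPM with CCT068127 and 700.5 CPM with DMSO (1.79 ± 0.13). MARVELD3, a tight junction protein, averaged 3.30 CPM with CCT068127 and 0.446 CPM with DMSO, a fitted log2 fold change of 2.70, or 1.13 on log2(TPM + 1), and passed the low-count filter only through treated cells. The tight junction gene CLDN1 averaged 159 CPM with CCT068127 and 350.0 CPM with DMSO (-1.14 ± 0.09), and the desmosome gene DSP 52.6 CPM with CCT068127 and 94.2 CPM with DMSO (-0.85 ± 0.11). The calls of KRT8, CLDN1 and DSP held in all 18 fits.

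Of the mesenchymal effector genes, 21 of 27 were tested, 13 rose, 1 fell and 7 did not pass, beside 31.9% higher and 32.8% lower of all tested genes, with a median of 0.56. This list too was chosen with earlier results of these data known, so its counts are a description only. TAGLN, a smooth muscle actin-binding gene, was higher by 3.46 ± 0.14 on the log2 scale (edgeR adjusted p = 3.93e-08). PDGFRB, a growth factor receptor of fibroblasts and pericytes, fell, at 5.98 CPM with CCT068127 and 31.96 CPM with DMSO (-2.37 ± 0.18). Others that rose were SPARC, ITGA5, ITGB1, MMP14, TNC, LOXL2, THBS1, AXL, CCN1, CCN2 and TGFBI. The genes that did not pass were COL1A1 (-0.25), COL5A2 (0.04), COL6A1 (0.36), MMP2 (-0.68), LOX (0.18), ACTA2 (0.16) and S100A4 (0.21). On log2(TPM + 1) 7 of 20 were higher and 3 lower, beside 17.2% and 51.9% of all genes, with a median of 0.12 beside -0.46.

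The partners of the cadherins were split. Of 18 genes for catenins, cadherins, nectins and other junction partners, 16 were tested, with a median of 0.05. Among them 4 were higher and 4 lower, beside 31.9% higher and 32.8% lower of all tested genes. CDH24 averaged 48.6 CPM with CCT068127 and 17.2 CPM with DMSO (1.48 ± 0.12, or 0.95 on log2(TPM + 1)), and CTNNA1, the alpha-catenin that links cadherins to actin, 716 CPM with CCT068127 and 464 CPM with DMSO (0.63 ± 0.10), with no call on log2(TPM + 1) (0.14, limma adjusted p = 0.165). JUP, or plakoglobin, averaged 132 CPM with CCT068127 and 248 CPM with DMSO (-0.90 ± 0.13), and the nectin partner AFDN 30.4 CPM with CCT068127 and 60.4 CPM with DMSO (-0.98 ± 0.11).

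All 23 genes for corepressors of Snail and for its phosphorylation and degradation were tested, of which 7 rose, 9 fell and 7 did not pass, with a median of -0.12. These counts are close to the 31.9% higher and 32.8% lower of all tested genes. The F-box gene FBXO45 averaged 35.5 CPM with CCT068127 and 18.0 CPM with DMSO (0.98 ± 0.11, or 0.45 on log2(TPM + 1)), and the Hippo kinase LATS2 61.1 CPM with CCT068127 and 34.7 CPM with DMSO (0.81 ± 0.11), with no call on log2(TPM + 1) (0.28, limma adjusted p = 0.0701). The corepressor adaptor AJUBA averaged 97.1 CPM with CCT068127 and 306 CPM with DMSO (-1.65 ± 0.14), and the phosphatase CTDSP1 42.6 CPM with CCT068127 and 106 CPM with DMSO (-1.28 ± 0.12). RCOR1, SIN3A, CTBP1, CSNK1E, FBXL14, FBXO11 and PRKD1 also fell, and HDAC1, EZH2, LOXL2, FBXL5 and FBXW7 rose. KDM1A, HDAC2, CTBP2, PAK1, COPS2 and the Snail degradation genes GSK3B (0.18) and BTRC (-0.07) did not pass. On log2(TPM + 1) the counts were 1 higher and 15 lower, beside 17.2% and 51.9% of all genes. JUP stands in the junction and catenin lists, and LOXL2 in the effector and corepressor lists.

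**Figure D4:**
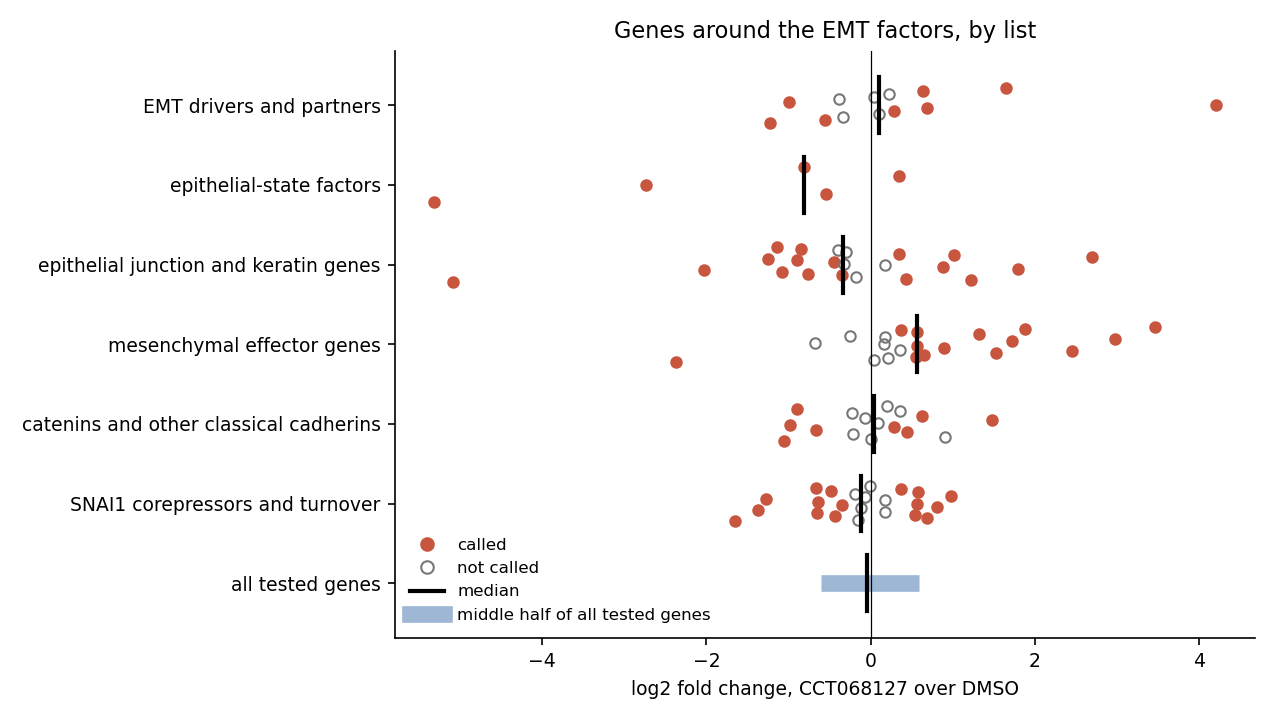
Log2 fold change (x axis, CCT068127 over DMSO) of each tested gene in 6 lists (rows), 1 point per gene with its call as the legend defines it, and the list median as a bar. The epithelial-state factors have the lowest median, -0.81, and the mesenchymal effector genes the highest, 0.56, beside -0.05 for all tested genes. All lists were chosen with earlier results of these data known. The lowest median rests on 5 genes, among them EHF, which passed the low-count filter only through DMSO cells.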

How the data were processed

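The deposited tables hold, per gene symbol, estimated counts that the authors had rounded to integers, and TPM. Per the submitters' processing notes, reads were handled with Bowtie and RSEM on hg38, with neither versions nor an annotation named. Poly(A) selection, NEB Ultra II libraries and a NovaSeq are given per the labels' protocols, which also call the replicates independent. Each deposited column matched a sample title. Between 27 and 203 genes per library had a count of 0 beside a TPM above 0.

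In R 4.3.3, edgeR 4.0.16 kept 13597 genes with filterByExpr (10 or more counts, which is 1.74 CPM for a library of median size, in 3 or more libraries). TMM scaling and a robust quasi-likelihood fit with treatment as its term followed, on all 6 libraries. Tests are two-sided, p-values are Benjamini-Hochberg adjusted over all 13597 genes, the threshold is 0.05, and rose and fell mean past it. SE was derived from the F statistic. DESeq2 1.42.0 and limma 3.58.1 (voom, and trend on log2(TPM + pseudocount) of 1 or 0.1, with or without a filter of 1 TPM in 3 libraries) were alternatives. TPM folds understate changes of low genes.

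A count of 0 allows, at 3 counts, 0.54, 1.53 and 0.644 CPM in CCT068127 replicates 1 to 3 and 0.00809, 0.0073 and 0.504 CPM in DMSO replicates 1 to 3. Intervals and floors cover counting error only. No pair of replicates agreed within counting noise (chi-square per degree of freedom 2.71 to 199).

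The 10 genes and all lists were chosen with earlier results of these data known. Named list genes are up to 2 called genes per list and direction with the smallest adjusted p and a mean of at least 1 CPM. A gene that this rule selects is not reported here by name, though it remains in the counts of its list. No spike-in is named, so changes are relative to other transcripts.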

Additional observations from a re-analysis of the deposited data

How the results depend on the processing

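The calls of SNAI1 and ZEB2 kept their direction and side of the threshold in all fits run. That of SNAI1, which passed the filter only through treated cells, is no support. Of the 10 genes, 4 passed as higher in the main fit, 1 with library totals, 1 without a low-count filter, 1 on each TPM scale, and 1 to 3 with a library left out. As lower passed 2, 1 with DESeq2, 3 on each TPM scale, where FN1 was added, and 1 to 2 with a library left out. Replicate numbers did not pair the samples: deviations of same-numbered libraries correlated at 0.00999, 0.00471 and 0.0095, and not every library was closest to its own number. With the replicate number as a block 3 of the genes passed as higher (CDH2 had an adjusted p of 0.0569) and 2 as lower. Of all genes, 4333 were higher and 4460 lower, against 2476 and 7475 on log2(TPM + 1), 2446 and 7300 on log2(TPM + 0.1) and 7326 lower on log2(TPM + 1) without a filter. EMT drivers called higher numbered 5, but 3 with library totals, 3 with voom, 2 on each TPM scale and 3 to 5 with a library left out, and lower 3, but 5 with library totals, 5 without a filter and 6 on each TPM scale. Epithelial-state factors called higher numbered 1, but 0 with library totals, without a filter and on each TPM scale, and 0 to 1 with a library left out. Junction genes called higher numbered 7, but 2 on unfiltered TPM. Mesenchymal effectors called higher numbered 13, but 7 on each TPM scale, and lower 1, but 3 with library totals, 3 without a filter, 2 with DESeq2, 2 with thinning, 3 on both filtered TPM scales, 4 on unfiltered TPM and 1 to 2 with a library left out. Genes of the catenin and cadherin list called higher numbered 4, but 2 with library totals, 1 on each TPM scale and 2 to 5 with a library left out. Those of this list called lower numbered 4, but 8 with library totals, 9 on both filtered TPM scales and 7 on unfiltered TPM. Snail corepressor and turnover genes called higher numbered 7, but 3 with library totals, 3 without a filter and 1 on each TPM scale, and lower 9, but 14 with library totals, 15 on both filtered TPM scales and 16 on unfiltered TPM. The mean log2 CDH2 to CDH1 ratio of the DMSO libraries was 9.77, but 8.86 with 0.1 added to the TPM, 9.39 from counts with 0.5 added, and 9.61 to 9.88 with a library left out. The direction turned for CDH2 with library totals (-0.04) and on TPM scales (-0.17, -0.18 and -0.17), for VIM on TPM scales (-0.13), and for KLF5 on TPM scales (-0.15). FN1 turned with library totals (-0.25), without a filter (-0.17), on TPM scales (-0.41), with DMSO replicate 3 as the sole control (-0.01), and, with libraries left out, at -0.05 and -0.01, in a range of -0.05 to 0.12. TM2D2 turned with library totals (-0.05) and on TPM scales (-0.16, -0.17 and -0.16), CHD1L with library totals (-0.09), without a filter (-0.02) and on TPM scales (-0.20), STARD3NL on TPM scales (-0.18, -0.19 and -0.18), with 0.0 under library totals, and BASP1 on TPM scales (-0.10). The cause was not tested beyond the shift of the median gene given with the results. Depth limits CDH1, SNAI3, the TWIST genes and MIR205HG, which rest on few or no counts in the 4 shallow libraries.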
